A study of Drosophila melanogaster with 30 samples.

Results

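Replication timing of female wing discs was compared between larvae whose only replication-dependent histone H3 has an arginine in place of lysine 9 (H3K9R) and larvae carrying the matching wild-type transgene (HWT). All windows on arms 2L, 2R, 3L, 3R, X and 4 of the authors' female H3K9R and HWT profile were taken. That gave 13389 windows of the 56192 windows and bins in the 4 deposited timing tables. Each window spans 100 kb, and a new one starts every 10 kb, so neighbouring windows overlap and are not independent. The value compared throughout is the H3K9R minus the HWT log2 ratio of S-phase to G1 DNA (S/G1). A higher ratio means earlier replication, so a positive difference means that the window replicated earlier in H3K9R.

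The cells came from wing imaginal discs of wandering 3rd instar Drosophila melanogaster females. Both genotypes lacked the endogenous cluster of replication-dependent histone genes (ΔHisC, twi-GAL4 over ΔHisC, UAS-2xEYFP; the 2 driver and reporter insertions served to sort the embryos). Both were rescued by a transgene with 12 copies of the 5 kb histone repeat, coding for wild-type histones in HWT and for H3 with the Lys to Arg change at residue 9 in H3K9R. DAPI-stained nuclei were sorted by DNA content, and 2 S-phase libraries and 1 G1 library were labelled for each genotype. The labels do not tie these libraries to separate larvae or crosses. As further female profiles, the series has a second HWT profile in the table of the H4K16R mutant (Lys to Arg at residue 16 of histone H4 in the same deletion background), the H4K16R profile itself, and yw, a strain that keeps its own histone genes. The labels give no change to the genes for the replication-independent H3 variant, which also has lysine 9, so some H3 with lysine 9 is to be reckoned with in the H3K9R cells. The labels write the deletion for the fathers of the HWT larvae but not for those of the H3K9R larvae, while they describe all sorted embryos as carrying it on both chromosomes. No RNA-seq of H3K9R was used here, and the disc identity of the H3K9R nuclei was not checked against marker genes.

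Lysine 9 of H3 is methylated in Drosophila by Su(var)3-9, Eggless and G9a. The methylated residue is bound by HP1a and marks the gene-poor, repeat-rich heterochromatin around the centromeres and most of the small chromosome 4. Pericentromeric heterochromatin replicates late in S phase in most cell types, while chromosome 4 carries heterochromatin marks and active genes side by side. Arginine keeps the positive charge of lysine but can be neither methylated by these enzymes nor acetylated.

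In most of the genome the H3K9R and HWT profiles lay close together. Across the 13389 windows the profiles correlated at r = 0.912 (Spearman's rho 0.872), a description of overlapping windows of 1 pooled profile per genotype. The median difference over all windows was -0.0010. A window was called shifted when the difference reached 0.1 in log2 S/G1. By that size 192 windows (1.43%) were earlier in H3K9R and 106 (0.792%) were later, 298 windows (2.23%) in all. The earlier windows closest to the threshold had a difference of 0.1004 inside it and 0.0999 outside it, and the later ones -0.10004 inside and -0.0999 outside. The file gives 1 value per genotype and window, without replicates or read counts, so no difference has a replicate error and no test was possible.

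A yardstick for these counts is the second female HWT profile, since the labels list a single set of female HWT libraries. After centring and SD-matching on the large arms, both HWT profiles differed by at least 0.1 in 325 windows, of which 275 were pericentromeric, 45 on the arms and 5 on chromosome 4. The 298 shifted windows between H3K9R and HWT were counted without SD-matching, so both counts are on different scales and only roughly comparable. By label both HWT profiles share their libraries, so their count holds no spread between libraries. Over all windows the median absolute difference between the HWT profiles was 0.0090, and their correlation was 0.945. For that reason each regional result is given with what the other female profiles show.

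The earlier windows lay mainly next to the centromeres. Pericentromeric blocks, set here as 2L from 22 Mb, 2R up to 6 Mb, 3L from 23 Mb, 3R up to 4 Mb and X from 22 Mb, made up 13.6% of all windows and 84.9% of the earlier ones (163 of 192). The arms outside the blocks made up 85.4% of all windows, 11.5% of the earlier ones (22) and 83.0% of the later ones (88). Chromosome 4 had 7 earlier windows and 0 later ones. The remaining 18 later windows were pericentromeric. Earlier windows were thus concentrated in the blocks, while later windows were spread over the compartments roughly in proportion to their size. A concentration in the blocks was not particular to H3K9R. Of the 325 windows that differed between both HWT profiles after SD-matching, 275 lay in the blocks. Over all compartments the second HWT profile was earlier in 132 of the 325 and later in 193.

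Over the 1823 pericentromeric windows the median log2 S/G1 was -0.15 in HWT and -0.13 in H3K9R. The median difference was 0.017, with quartiles of -0.012 and 0.055, and 65.3% of the windows were above 0. Over the 11432 arm windows the medians were 0.061 and 0.060 and the median difference was -0.0038, with 45.8% of the windows above 0. The size of the pericentromeric median depends on the control profile and its scale. It was -0.0018 against the second HWT profile and 0.0024 against yw when these were only centred, and 0.040 against each when they were also SD-matched. The direction of the median over all blocks thus depended on the control profile and its scale.

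**Figure D1:**
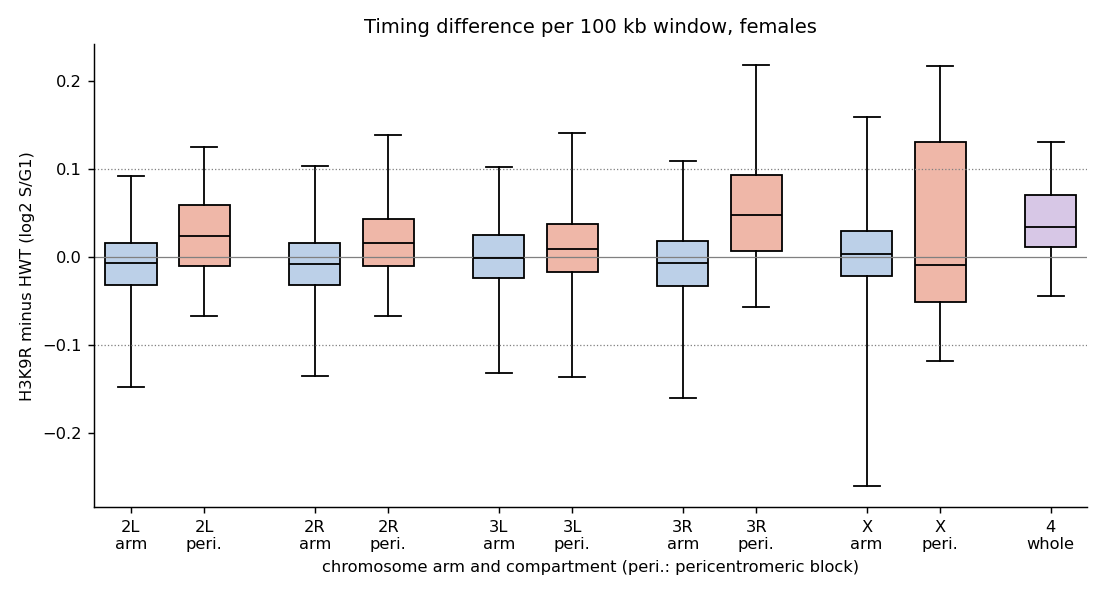
Difference H3K9R minus HWT in log2 S/G1 per 100 kb window (y axis) for each chromosome arm outside its pericentromeric block, for each block and for chromosome 4 (x axis). Boxes give the quartiles and the median, whiskers the lowest and highest window and dotted lines the size of 0.1; the 3R block (median 0.048) and chromosome 4 (median 0.034) sit highest, and the X block has the widest box.

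The blocks of the 5 arms differed from one another. In the block of 3R, the latest of the 5, the median was -0.25 in HWT and -0.20 in H3K9R, and the median difference over its 395 windows was 0.048. Of these windows 87 were earlier, 0 were later and 79.0% were above 0. The 3R block kept its direction against the other controls, at 0.081 against the second HWT profile and 0.025 against yw, both centred only. In the blocks of 2L and 2R the median differences were 0.024 (157 windows) and 0.016 (595 windows). There, 4 and 22 windows were earlier and 0 were later. Both sat within about 0.01 of 0 against the second HWT profile, at -0.0006 for 2L and -0.0075 for 2R. The block of 3L had a median of 0.0099 over 516 windows, with 8 earlier and 14 later windows, and was at -0.015 against the second HWT profile. The X block had both directions, with 42 earlier and 4 later of 160 windows, quartiles of -0.050 and 0.13 and a median of -0.0093.

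Ranks within each profile do not depend on its scale. A rank percentile of 0 is the latest window of a profile and 100 the earliest, over the 13367 windows with a value in all 5 female profiles. The median pericentromeric window stood at percentile 10.0 in H3K9R, against 7.75 in HWT, 8.33 in the second HWT profile, 8.10 in H4K16R and 7.55 in yw. In the 3R block it stood at 3.36 in H3K9R, and between 1.62 and 2.16 in the other 4. H3K9R ranked above all 4 other female profiles in 24.1% of all windows, in 38.8% of the pericentromeric windows (703) and in 48.6% of the windows of the 3R block (192). It ranked below all 4 in 22.6% of all windows and in 21.0% of the pericentromeric ones (380). The excess over the genome-wide share was therefore in the upward direction. On 2L the block was not particular to H3K9R, at percentile 25.7 against 29.4 in H4K16R, and with a higher value in the second HWT profile as well.

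Within the blocks the difference came in stretches rather than as a constant offset. On 3R the first 1 Mb inside the block boundary differed little, with means of 0.017 and 0.0093 in its 0.5 Mb steps. The next steps toward the centromere had means of 0.086, 0.11, 0.067, 0.044 and 0.095, and the last step was at -0.014. On 2R the highest steps lay between 1.5 and 3 Mb into the block, with means of 0.048, 0.077 and 0.052, and the 3 steps that followed lay between -0.016 and 0.00094. On 3L the steps from 1.5 to 3 Mb had means of 0.035, 0.038 and 0.050, but the steps from 0.5 to 1 Mb and from 3 to 3.5 Mb were at -0.035 and -0.045. On 2L the step from 1 to 1.5 Mb was highest, at 0.047. No arm differed evenly from boundary to centromere.

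**Figure D2:**
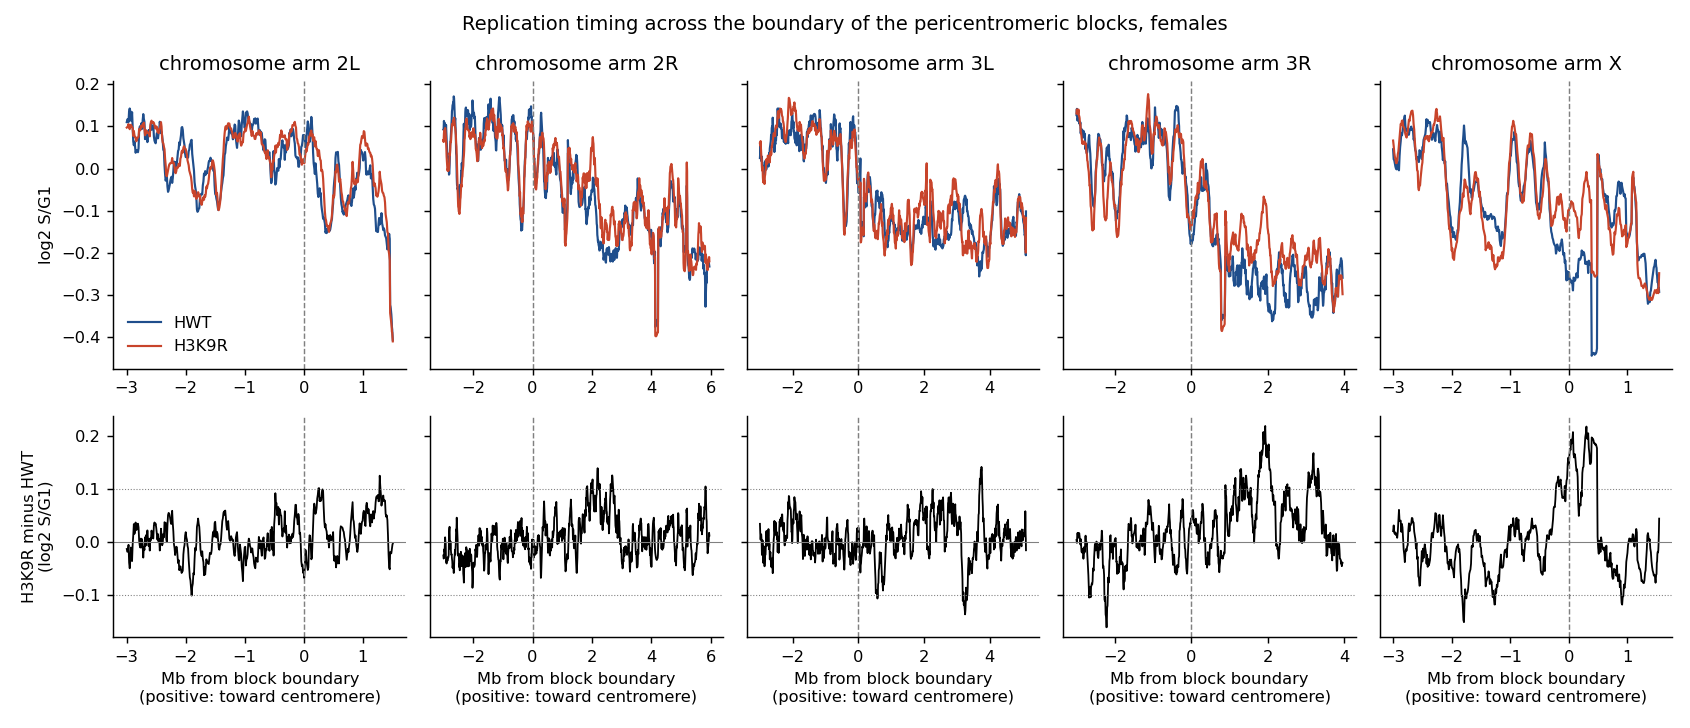
Log2 S/G1 of HWT and H3K9R (upper row) and their difference (lower row) against the distance in Mb from the block boundary of each arm, with the block to the right of the dashed line. The 3R difference stays above 0 over most of the block with a peak of 0.22, while the X difference peaks at the boundary and falls back below 0 within 1 Mb.

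On the proximal X the earlier windows lay in a short stretch. From 21.5 to 22 Mb the mean difference was 0.048, with 16 of 50 windows earlier. From 22 to 22.5 Mb the mean log2 S/G1 was -0.27 in HWT and -0.12 in H3K9R, a mean difference of 0.16, with 42 of 50 windows earlier. From 22.5 Mb to the end of the assembled arm the mean difference was -0.035 and 0 of 110 windows were earlier. Of the earlier windows of X, 16 of the 19 on the arm and all 42 in the block thus lay between 21.5 and 22.5 Mb, and the mean over the rest of the block was below 0. H3K9R ranked below all 4 other female profiles in 49.4% of the X block windows (77), beside 25.0% above all (39).

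Runs of at least 3 neighbouring windows past 0.1 were merged into domains. There were 13 earlier runs of 120 to 440 kb, covering 2540 kb and 160 windows, 11 of them pericentromeric, 1 on the arm of X just outside its block and 1 on chromosome 4. There were 12 later runs of 120 to 230 kb, covering 1680 kb and 68 windows, 9 on the arms and 3 pericentromeric. Some runs overlap, since windows do, and shared DNA and genes were counted once. The earlier runs held 45 whole protein-coding genes of the RefSeq annotation, and 5 of the 13 held no whole gene of any kind. Others, such as 3R:1870001-2310000, held a whole gene but no whole protein-coding gene. The later runs held 125, and each had at least 1. These totals were not adjusted for gene density, which differs by compartment. Windows shifted in neither direction had a mean of 1.196 protein-coding genes in the blocks and 11.94 on the arms. Earlier block windows had 1.178 (median 0, against 1) and later arm windows 10.45. Earlier arm windows had 4.955 and later block windows 1.667. On chromosome 4 the mean was 8.857 in earlier windows and 5.638 in those shifted in neither direction. The runs were chosen by the H3K9R and HWT values, and the same H3K9R values enter every other difference, so values against other profiles within the runs are a description and no independent support. The 13 earlier runs were past 0.1 in 10 cases against the second HWT profile and in 5 against yw, both centred only. For the 12 later runs these counts were 11 and 6. With SD-matching as well, the earlier runs were past 0.1 in 13 and 12 cases, and the later runs in 6 and 2. With H3K9R and HWT both scaled to 1 SD over the arms, 13 earlier runs but only 4 later runs stayed past 0.1. Against HWT males on the autosomes, centred and SD-matched, 10 of 10 earlier runs but 0 of 8 later runs were past 0.1. All of these kept their direction. The size of the later runs thus depended more on the scale of the profiles and on the control profile.

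The longest earlier run, 3R:1870001-2310000 (dm6), lay wholly inside Myo81F, a very large myosin gene of the 3R heterochromatin that the annotation places at 3R:567076-2532932. Its mean log2 S/G1 was -0.29 in HWT and -0.13 in H3K9R, a mean difference of 0.16 with windows from 0.11 to 0.22. The same run was at -0.38 in the second HWT profile, -0.39 in H4K16R and -0.32 in yw. It stood at percentile 1.19 in HWT and 8.84 in H3K9R, against 0.367, 1.86 and 1.03 in the other 3, and 34 of its 35 windows ranked above all other female profiles. This run also held the window with the highest difference of all, 3R:2020001-2120000, at -0.30 in HWT, -0.079 in H3K9R and 0.22 in the difference. No interval of the authors' female RNA table lay in the run, a table made from HWT and H4K16R. In absolute terms this remained late-replicating DNA in H3K9R.

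Myo81F held 2 further earlier runs. The run 3R:620001-760000 had a mean difference of 0.13, from -0.32 in HWT to -0.19 in H3K9R, and all of its 5 windows ranked above the other female profiles. The run 3R:700001-1000000 overlapped it and had a mean difference of 0.13, from -0.33 to -0.21, with all 21 windows above the other profiles. The strongest earlier run of 3L, 3L:26650001-26820000, contained no annotated gene. Its means were -0.23 in HWT and -0.11 in H3K9R, a difference of 0.12, and its percentiles 2.58 and 12.8. On 2R the strongest earlier run was 3720001 to 3880000, also without an annotated gene, where the means were -0.17 in HWT and -0.045 in H3K9R and the difference was 0.12. No earlier run was found on 2L.

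Both other strong earlier runs were on X. The run X:21900001-22200000, which held 12 protein-coding genes known only by CG numbers, such as CG46504 and CG40813, was at -0.26 in HWT and -0.11 in H3K9R, a mean difference of 0.16. All of its 21 windows ranked above the other female profiles, which had means of -0.26, -0.34 and -0.23. The run X:22180001-22530000 had the highest mean difference of any run, 0.18, from -0.30 in HWT to -0.12 in H3K9R. It held 23 whole protein-coding genes, among them Cp110, for a centriole protein, and Usp2, for a deubiquitinating enzyme, and overlapped S6kII, for a ribosomal S6 kinase. Only 14 of its 26 windows ranked above the other female profiles. Those had means of -0.22 (second HWT profile), -0.32 (H4K16R) and -0.22 (yw). With each profile centred on its arm median, H3K9R minus these was 0.063, 0.17 and 0.053, so the size depended on the control profile.

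Part of that run rested on 1 bin of 10 kb. The last 10 windows of the run all contain X:22430001-22440000 and had means of -0.44 in HWT and -0.25 in H3K9R, while the 10 windows after the bin were at -0.0035 and -0.0084. At the edge of the bin the step in the difference between neighbouring windows was -0.17. Between neighbouring windows the median absolute step was 0.0096 genome-wide, and only 3 steps reached 0.1. The 16 windows of the run before the bin had a mean difference of 0.17, so against HWT the run was about as high without the bin. In those 16 windows H3K9R was at -0.047, the second HWT profile at -0.20, H4K16R at -0.36 and yw at -0.28. Over the last 10 windows the second HWT profile was at -0.27, H4K16R at -0.27 and yw at -0.13, so H3K9R was not above all of them there.

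**Figure D3:**
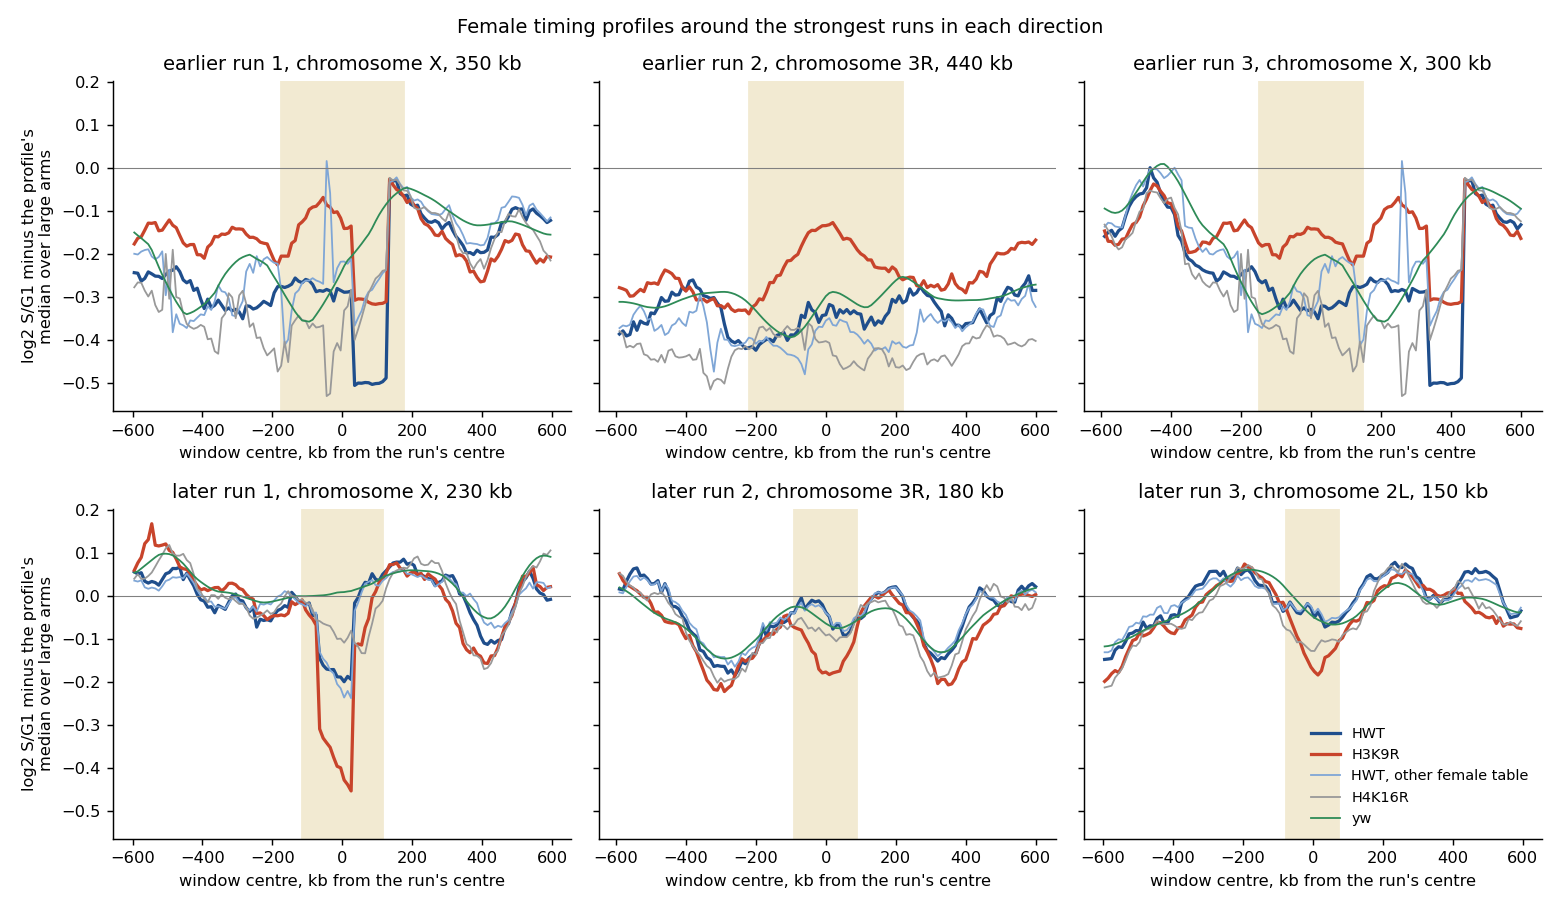
Log2 S/G1 of the 5 female profiles, each minus its median over the large arms (y axis), against the distance in kb from the centre of the run (x axis), for the 3 earlier and the 3 later runs with the largest mean difference; shading marks the run. H3K9R lies above the other profiles over most of the 3R run and close to yw at its edges. In the X panels the largest steps of HWT and H3K9R coincide with single bins. Inside the strongest earlier run other profiles also jump between neighbouring windows away from that bin. There the second HWT profile goes from -0.27 to 0.016 and H4K16R from -0.37 to -0.53.

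The other 2 of the 3 steps of 0.1 lay in the strongest later run. X:2700001-2930000 had a mean log2 S/G1 of -0.064 in HWT and -0.24 in H3K9R, a mean difference of -0.18. It held 25 whole protein-coding genes, among them w, for an ABC transporter that loads eye pigment precursors, crm, for a nuclear protein, and fs(1)Yb, for a piRNA pathway protein, and overlapped kirre, for a cell adhesion protein of the immunoglobulin superfamily. The 10 windows over the bin X:2790001-2800000, which holds w at X:2790599-2796466, ranged from -0.39 to -0.25 in H3K9R and from -0.14 to -0.084 in HWT, without overlap. Their median was -0.17 in the second HWT profile, -0.055 in H4K16R and 0.023 in yw. The lowest window of all, X:2790001-2890000, was among them at -0.13 in HWT, -0.39 in H3K9R and -0.26 in the difference. The 16 neighbouring windows without the bin had differences from -0.13 to 0.0050 with a median of -0.027. The step in the difference was -0.14 on entering the bin and 0.16 on leaving it. Over the windows of the run without the bin the mean difference was -0.11. The yw values at w carry a limit, since that profile may not show steps over single bins. At the edge of the bin in the strongest earlier run, neighbouring windows rose from -0.49 to -0.037 in HWT. In yw they rose only from -0.084 to -0.074, with each profile minus its arm median. Whether yw differs from the other profiles at w is therefore not settled by these values. How a 10 kb bin at w came to differ among the profiles was not tested.

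The next later runs lay on the autosomes and had no step of 0.1 at their edges. The run 3R:6140001-6320000 covered the Osiris cluster, a group of insect genes for proteins linked to cuticle formation, together with NPFR, for the neuropeptide F receptor, 26 whole protein-coding genes in all. Its means were 0.021 in HWT and -0.11 in H3K9R, a mean difference of -0.13, and it stood at percentile 39.5 in HWT and 11.3 in H3K9R. The second HWT profile stood at 34.6, H4K16R at 26.7 and yw at 26.3, and all 9 windows ranked below the other female profiles. The run 2L:6190001-6340000, with Ddr, for a discoidin domain receptor, Pez, for a tyrosine phosphatase, and PDZ-GEF, for an exchange factor of Rap GTPases, had means of 0.025 in HWT and -0.10 in H3K9R, a mean difference of -0.13. Its percentiles were 40.8 and 12.2. All 6 windows of that run ranked below the other female profiles, and it held 8 whole protein-coding genes.

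On X the run 20120001 to 20270000 was at 0.061 in HWT and -0.061 in H3K9R, a mean difference of -0.12. It contains sw, for a dynein intermediate chain, and the Sdic genes, near-identical tandem copies derived from sw and AnxB10. Reads from such copies cannot be placed uniquely, and the sources used here do not say how the authors treated them. The strongest later run of 2R, at 20780001 to 20910000, held insc, for an adaptor of asymmetric cell division, and otp, for a homeodomain protein. It was at 0.014 in HWT and -0.10 in H3K9R, a mean difference of -0.12, but H4K16R stood at -0.11 there. The strongest pericentromeric later run, 3L:26160001-26320000, was at -0.069 in HWT and -0.19 in H3K9R, a mean difference of -0.12, and H4K16R stood at -0.23 there. With each profile centred on its arm median, H3K9R minus H4K16R was -0.023 in the 2R run and 0.0064 in the 3L run, although all windows of both ranked below the other female profiles. The other 6 later runs had mean differences between -0.12 and -0.10.

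Most of chromosome 4 was earlier in H3K9R than in HWT. Its median log2 S/G1 over 134 windows was 0.068 in HWT and 0.10 in H3K9R, and the median difference was 0.034, with quartiles of 0.011 and 0.071 and 89.6% of windows above 0. All 6 steps of 0.25 Mb had a mean above 0, from 0.022 to 0.061. The median window stood at percentile 61.0 in HWT, 70.0 in the second HWT profile, 76.1 in H4K16R, 59.1 in yw and 81.1 in H3K9R. H3K9R ranked above all 4 other profiles in 60.3% of the windows (79) and below all 4 in 0.763% (1). Against the other controls the median stayed positive, at 0.031 for the second HWT profile and 0.045 for yw, centred only. The H4K16R minus HWT median, from the other table, was 0.025, so chromosome 4 was above its HWT in both mutants, which share their HWT libraries by label.

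The run 4:160001-320000 was the part of chromosome 4 that differed most. It was at 0.037 in HWT and 0.15 in H3K9R, a mean difference of 0.12. It stood at percentile 42.6 in HWT and 97.2 in H3K9R, while the second HWT profile stood at 40.1, H4K16R at 67.9 and yw at 56.9. All 7 windows ranked above the other female profiles. The run held 13 whole protein-coding genes, among them Crk, for a signalling adaptor, Rad23, for a DNA repair and ubiquitin receptor protein, and Syt7, for a synaptotagmin. The other 12 earlier runs lay at or under percentile 5.63 in HWT.

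On the arms outside the blocks the differences were small and, by yw classes, ordered by timing. Arm windows were split into quintiles (classes of 20% of the windows) by the yw profile, whose libraries enter neither side of the difference. From the latest to the earliest quintile the median differences were -0.017, -0.0078, -0.0050, -0.0012 and 0.011. The medians between the latest and the earliest were smaller in size than 0.0090, the median gap between the HWT profiles. All class medians used the unscaled difference from the HWT of the same table. The number of later windows was 35, 20, 30, 3 and 0, and the number of earlier ones 16, 0, 0, 0 and 6. The latest quintile was thus slightly later and the earliest quintile slightly earlier in H3K9R, and the SD over arm windows was 0.077 in H3K9R and 0.069 in HWT. Quintiles taken from HWT males had medians from -0.015 to 0.0052 in nearly the same order. Quintiles taken from female HWT itself, whose values are in the difference, gave another order, with -0.0052 in the latest and -0.019 in the earliest.

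The order of the latest and earliest quintiles was the same on each arm, but on 2L neither median was above 0. In the latest yw quintile the median was -0.019 on 2L, -0.022 on 2R, -0.019 on 3L, -0.018 on 3R and -0.0073 on X. In the earliest it was -0.0012, 0.0074, 0.023, 0.013 and 0.020. The latest quintile was below the earliest on all 5 arms, with the smallest gap on 2L. Over whole arms the median difference was -0.0066 on 2L, -0.0077 on 2R, -0.0006 on 3L, -0.0065 on 3R and 0.0034 on X. X had the most windows of each direction, 19 earlier and 31 later, and 10 of the later ones were those over the bin at w.

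In the blocks the order was the opposite. By yw quintiles within the blocks the medians were 0.046, 0.030, 0.0090, 0.0057 and 0.013 from latest to earliest, with 87, 43, 18, 5 and 10 earlier windows. Quintiles from HWT males had medians of 0.066, 0.017, 0.011, 0.0052 and 0.0099. Pooled over the blocks, the latest quintile therefore had the largest median, by a profile that is not part of the difference. These quintiles were not split by arm, and 3R, the latest block, held 87 of the 163 earlier windows. Not all very late stretches were earlier. The innermost step had a mean of -0.010 on X (yw -0.33, 9 windows) and -0.014 on 3R (yw -0.31, 46 windows). The 2R step from 5 to 5.5 Mb was at -0.010 (yw -0.25, 50 windows). On the arms late windows leaned later, and in the pooled blocks the latest windows leaned earlier.

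**Figure D4:**
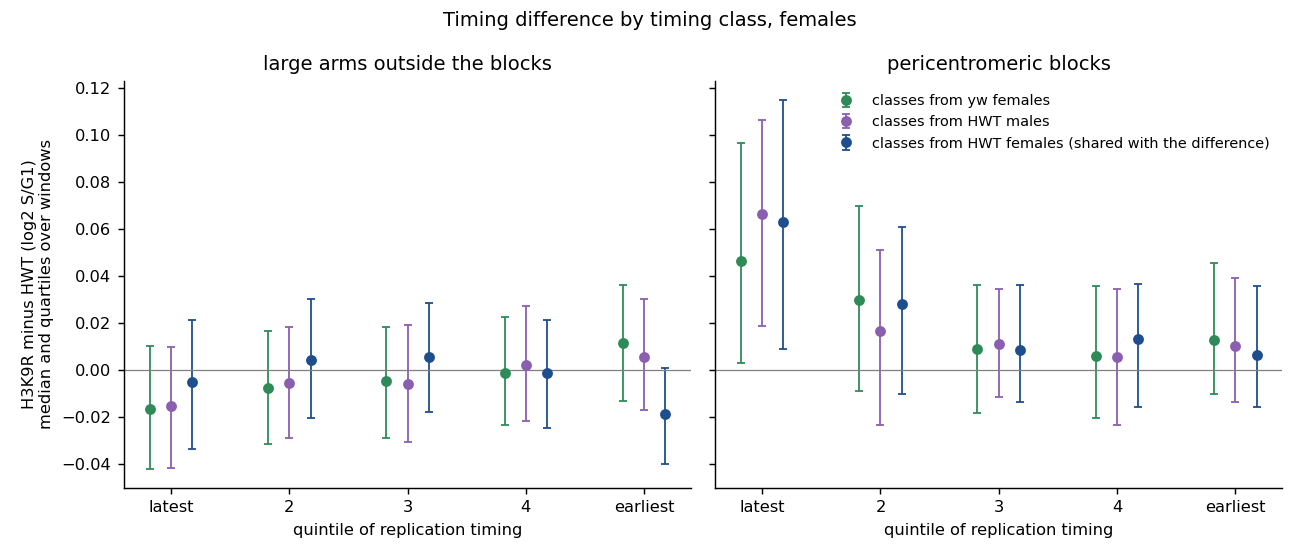
Median and quartiles of the H3K9R minus HWT difference in log2 S/G1 (y axis) by quintiles of replication timing (x axis), for arm windows and for pericentromeric windows, with the quintiles taken from yw females, HWT males or HWT females. By yw and HWT male quintiles the arm medians rise from -0.017 or -0.015 to 0.011 or 0.0052, and the pericentromeric medians fall from 0.046 or 0.066.

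No megabase of the arms had a mean difference that reached the size used to call a window shifted. Some of these means were at least as far from 0 as the chromosome 4 median of 0.034. Of 114 megabases outside the blocks 46 had a mean difference above 0 and 68 below 0, and the means ran from -0.046 to 0.031. Both extremes were on the proximal X, at 20 to 21 Mb and 21 to 22 Mb. The last 1 Mb at the telomere side had means of -0.014 on 2L, -0.014 on 2R, 0.0047 on 3L, 0.0026 on 3R and 0.021 on X. The chromosome ends are part of the arms, so their place within the range of the arms is no separate result.

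Earlier pericentromeric windows were more often without a transcribed interval than those shifted in neither direction, and later ones less often. Intervals of the authors' female RNA table, which list transcribed regions of HWT and H4K16R discs, were absent from 75.5% of the 163 earlier pericentromeric windows from 38.9% of the 1642 pericentromeric windows shifted in neither direction and from 16.7% of the 18 later ones. By number of intervals the median difference was 0.027 in 764 windows with none, 0.014 in 875 windows with 1 to 5, 0.0050 in 158 windows with 6 to 10 and -0.0011 in 26 windows with over 10. Of the 163 earlier windows 123 had no interval. Windows without intervals were also the latest in HWT, with a median of -0.21, so timing and transcription cannot be told apart here. In the later arm windows the median number of intervals was 3, against 8 in arm windows shifted in neither direction.

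Named genes of the blocks lay on both sides of 0, and none of the gene lists had a member whose mean over its windows reached 0.1. Of 21 pericentromeric genes 14 were above 0, with a median of 0.010. The highest was uex, for a CNNM family magnesium transporter, on 2R, with a mean log2 S/G1 of -0.057 in HWT and 0.025 in H3K9R and a difference of 0.082. Myo81F followed at 0.081 over its 207 windows, which ranged from -0.031 to 0.22. Nipped-B, for the cohesin loader, was at 0.048, and RpL15, for a ribosomal protein, was at 0.039. The flamenco piRNA cluster (flam), on the X arm next to the block, was at 0.046, with windows from -0.054 to 0.12 that crossed from no shift to the earlier stretch of the proximal X. AGO3, for an Argonaute of the piRNA pathway, was lowest at -0.063, from -0.071 in HWT to -0.13 in H3K9R.

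All 14 named genes of chromosome 4 were above 0, from 0.0092 to 0.061 with a median of 0.028. The highest values were at toy, one of the Pax6 genes, with 0.061, and its neighbour PlexA, for a semaphorin receptor, with 0.054. These neighbours share most of their windows and are not separate measurements. The other Pax6 gene, ey, was at 0.043, and CaMKII, bt and Mitf were at 0.038, 0.038 and 0.037. The list followed the chromosome as a whole, whose median was 0.034.

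Homeotic genes, which set segment identity and are silenced in part by Polycomb, leaned the other way. Of the 6 listed genes 1 was above 0, and the median was -0.035, against -0.0038 over the arms. The genes lie in 2 clusters on 3R and neighbours share windows, so they are not 6 separate measurements. The megabases around them were low as a whole, with means of -0.034 at 6 to 7 Mb and -0.023 at 16 to 17 Mb. The head gene lab was lowest, at -0.075, from 0.045 in HWT to -0.029 in H3K9R, with windows from -0.10 to -0.021. In the bithorax complex abd-A was at -0.066, Ubx at -0.037 and Abd-B at -0.034. In the Antennapedia complex Scr was at -0.015 and Antp, which is active in the wing disc, at 0.0044.

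Genes that pattern the wing had no common direction. Of 12 listed genes 6 were above 0 and the median was -0.0019. The highest were sd, for the TEAD factor that partners Vestigial, at 0.064, and en, for the posterior selector homeodomain protein, at 0.062. The lowest was salm, for a zinc finger repressor under Dpp control, at -0.060, followed by Dll at -0.025 and ap at -0.020. The gene vg, for the wing selector, was at 0.027. All 12 remained at positive log2 S/G1 in both genotypes. Among genes for heterochromatin and late-replication factors, by their own position, egg, for the H3K9 methyltransferase Eggless, was at -0.055 and Su(var)2-5, for HP1a, at -0.042. The others, Su(var)3-9, G9a, SuUR and Rif1, lay between -0.011 and 1.5e-05.

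**Figure D5:**
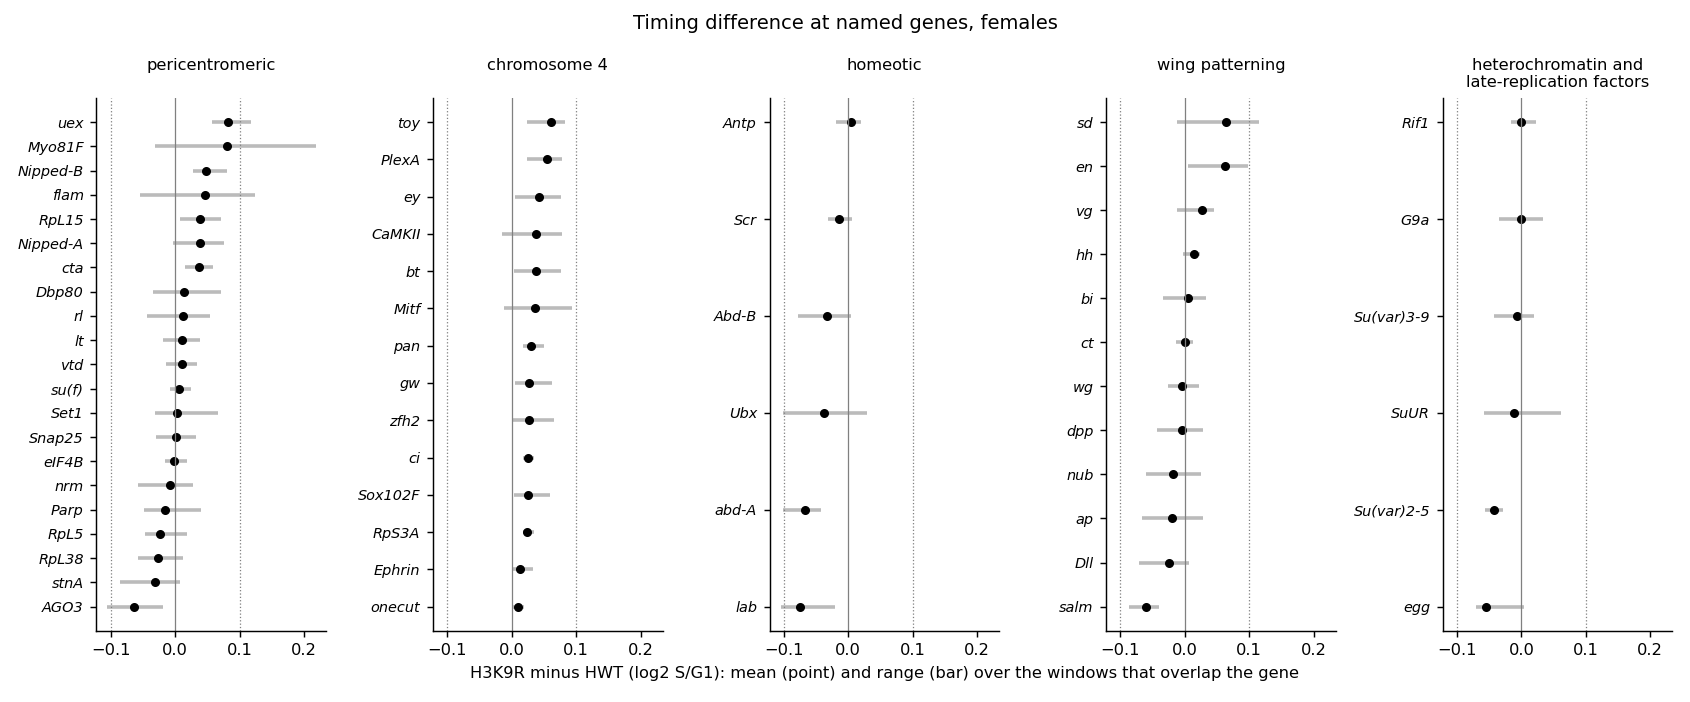
H3K9R minus HWT difference in log2 S/G1 (x axis) for each gene of the 5 lists (y axis), as the mean (point) and range (bar) over the windows that overlap the gene, with dotted lines at 0.1 in each direction. All 14 chromosome 4 genes lie above 0, the pericentromeric genes run from -0.063 to 0.082, and no mean passes a dotted line.

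The endogenous histone cluster on 2L, which both genotypes lack, had a mean difference of 0.024, with windows from -0.025 to 0.092. Its mean log2 S/G1 was 0.0065 in HWT, 0.031 in H3K9R and -0.023 in yw, which keeps the cluster. It was -0.0099 in the second HWT profile and 0.21 in H4K16R. Reads at these windows can come from the transgene as well as from the flanks, and the 2 sources cannot be told apart.

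The H4K16R females give a side-by-side value for each region, from a table with its own HWT profile of the same labelled HWT libraries. In the pericentromeric blocks the H4K16R minus HWT median was -0.040, and the H3K9R minus HWT median was 0.017. In the 3R block these medians were -0.061 and 0.048. On chromosome 4 they were 0.025 and 0.034, and on the arms 0.0006 and -0.0038. The values come from tables on different scales and share controls, so they were not tested against each other.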

How the data were processed

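Repli-seq values of female H3K9R and HWT wing discs were taken as the authors deposited them, 1 value per genotype in 100 kb windows every 10 kb, build dm6. The deposited values are S/G1 on a log scale centred near 0. The headers do not state the base; it was read as log2, because the slope on log2 of the other female table's HWT profile was 1.13 and natural logs would give 0.693. In the H4K16R female table the authors deposited a linear ratio of S to G1, and log2 was taken here. The yw file gives deposited log2 values in 10 kb bins, averaged per window where at least 5 of 10 had a value. Steps over single bins may not show in the yw profile, as described for the bins on X. The female RNA table holds, per the file headers, the authors' log2 fold change and adjusted p-value per interval; only the positions of its intervals were used. Tools listed in the submitters' processing notes are limma, bedtools, SAMtools 1.6, Bowtie2 2.3.2, edgeR, Cufflinks 2.2.1 and TopHat, with no role stated for any. The sources used here do not say how the S-phase libraries were combined, and the depth is unknown.

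Differences, medians, ranks and runs were computed with Python 3.11.15, numpy 2.4.6 and pandas 2.3.3, and the run finder was checked on simulated data. A window belongs to the block its centre lies in. A gene's value is the mean over the windows that overlap it, with positions from the RefSeq annotation of Release 6. No test was made, since each genotype has 1 value per window; a size of 0.1 stands in for one. The runs named are the 5 strongest of each direction and the strongest of each direction on each arm; up to 6 genes of each list are given with values, by the size of the difference. Members and lists were chosen with earlier results of these data known. Alternatives covered the threshold, scaling, control profile, block boundaries, class profile and window overlap.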

Additional observations from a re-analysis of the deposited data

How the results depend on the processing

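No paired analysis was possible because the file gives 1 pooled value per genotype and window, and leaving out a replicate was not run for the same reason. Counts followed the threshold. At 0.05, 0.15 and 0.2 the earlier share was 10.1%, 0.426% and 0.0598%, the later share 9.59%, 0.0971% and 0.0448%, the earlier runs 139, 4 and 1, and the later runs 151, 1 and 1. With at least 5 windows per run there were 5 later runs. Scaling both profiles to 1 SD over the arms gave 0.306% later, a pericentromeric median of 0.036, 20 earlier runs and 5 later runs. Centring and SD-matching the second HWT profile gave 4.23% earlier, a pericentromeric median of 0.040, a chromosome 4 median of 0.024, 29 earlier runs and 20 later runs. The following controls and scales were chosen after seeing the data. The second HWT profile, centred only, gave 2.29% later, a pericentromeric median of -0.0018, 24 earlier runs and 40 later runs. SD-matched yw gave 2.93% earlier, a pericentromeric median of 0.040 and 26 earlier runs. Centred only, yw gave 2.08% later, a pericentromeric median of 0.0024, a chromosome 4 median of 0.045 and 34 later runs. HWT males on the autosomes gave 5.79% earlier, 0.128% later, a pericentromeric median of 0.065, a chromosome 4 median of 0.082, an arm median of 0.0081, 28 earlier runs and 2 later runs. The latest minus the earliest arm class was -0.028 with yw quintiles, -0.045 with yw deciles and 0.014 with female HWT classes, which share values with the difference. Without the windows over both X bins the shares were 1.36% and 0.718%, and the run counts stayed at 13 and 12. In all, 42 of these values moved under an alternative and 46 stayed within 1.5 times or within 0.0090, the latter including both shifts of the block boundaries by 1 Mb. For the named genes and runs 418 values moved by more than 0.0090 and 324 did not. The cause was not tested for the control profiles, whose own HWT columns differ. Without depth or replicates, differences near 0.009, the median gap between the SD-matched HWT profiles, cannot be resolved. By label these profiles share their libraries, so the gap holds no spread between libraries, and larger differences are not thereby resolved. In the pericentromeric blocks the median of the second HWT profile minus HWT, both centred only, was 0.021.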
